A study of Mus musculus with 12 samples.

Results

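The genes described here are 40 genes of fatty acid oxidation, of the last step of ketone body synthesis and of the target set of PPAR-alpha, in mouse liver. They were chosen by name, with earlier results of these data known, from the gene table, which lists 24411 genes. All 40 were in the table, and all 40 passed the filter on low counts that left 13922 genes to be tested. By the place where their products work, 21 are mitochondrial, 8 are peroxisomal, 4 are microsomal, and the other 7 act in the nucleus, in the cytosol, at the cell surface or in the blood.

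Fatty acids enter hepatocytes, are bound by FABP1 in the cytosol and are activated to acyl-CoA. CPT1A at the outer mitochondrial membrane, the carnitine carrier SLC25A20 and CPT2 at the inner membrane then bring long chains into the matrix, where the β-oxidation spiral shortens them and passes electrons through the electron transfer flavoprotein ETF and its oxidoreductase ETFDH to the respiratory chain. Very long chains are shortened first in peroxisomes, and the CYP4A enzymes of the endoplasmic reticulum, isolated as microsomes, hydroxylate chains at the omega end. PPAR-alpha, a nuclear receptor that binds fatty acids and pairs with RXR, raises many of these genes in fasting liver, with the co-activator PGC-1-alpha (encoded by Ppargc1a).

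Poly(A) RNA of whole liver was sequenced from mice at 3 months of age on a C57BL/6 background that had free access to standard diet. The cont. mice carried Atg7flox/flox alone, the Atg7-KO mice carried Atg7flox/flox;Alb-Cre, and the Atg7-KO;p62T352A mice carried Atg7flox/flox;Alb-Cre together with homozygous p62T352A, so that every mouse had the floxed Atg7 alleles. There were 3 mice of each genotype. ATG7 is needed to form autophagosomes, and the study describes its loss with Alb-Cre as specific to hepatocytes. Whether other cells of the liver kept the gene was not tested. The p62T352A change was prime-edited into the endogenous gene of p62 (Sqstm1), an autophagy receptor that accumulates in bodies when autophagy fails, and is used in the study as the line whose p62 bodies hold little or no KEAP1, the inhibitor of NRF2. The comparison of Atg7-KO with cont. asks what loss of ATG7 does to these genes, and that of Atg7-KO;p62T352A with Atg7-KO what differs when p62 carries the change. The 3 mice with p62T352A alone were not analysed here.

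Total counts were 9671080 to 23285132 in cont., 16157269 to 18480553 in Atg7-KO, while the Atg7-KO;p62T352A mice had 16133620 to 17357172, and the 40 genes held 1.02% to 1.70% of them. Values are given as normalized CPM, counts scaled to library size with the TMM factors of edgeR. A gene was called when edgeR's quasi-likelihood test gave a false discovery rate under 0.05 after Benjamini-Hochberg adjustment over all tested genes and the fold change was over 1.5. Atg7 itself was at 46.4, 44.2 and 55.4 normalized CPM in cont., at 10.1, 9.57 and 12.0 in Atg7-KO, while the Atg7-KO;p62T352A mice had 29.7, 27.4 and 29.5. Atg7 RNA was thus lower than in cont. in both Cre lines, by a log2 of -2.20 ± 0.17 (SE, adjusted p = 2.55e-05) and -0.75 ± 0.16 (adjusted p = 0.0206), but 2.73-fold higher in Atg7-KO;p62T352A than in Atg7-KO (adjusted p = 0.000164). The part of this difference in what is reported below was not tested, and gene counts cannot show the p62T352A change itself. At the protein level, the study's immunoblots found hardly any ATG7 or LC3-II in the Atg7-KO background, with or without the p62 mutation. Sqstm1, a target of NRF2, was at 505, 341 and 314 in cont., at 911, 871 and 960 in Atg7-KO, while the Atg7-KO;p62T352A mice had 497, 626 and 511. The labels do not give the sex of the mice. Xist was at 0.401 to 1.35 normalized CPM in the mice numbered 1 and at 372.9 to 2015 in those numbered 2 and 3, while cont. mouse 2, with Xist at 1181, also had the Y-linked Ddx3y at 23.6, against 68.2 in cont. mouse 1. The cause of this was not tested. For this reason some results are also given without the mice numbered 1 or without cont. mouse 2.

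Of the hepatocyte markers, 7 of 10 were called lower in Atg7-KO, with a summed level of 39290 to 42100 normalized CPM against 75610 to 133200 in cont. and 112400 to 128200 in Atg7-KO;p62T352A. Macrophage and Kupffer cell markers were called higher in Atg7-KO in 11 of 14 cases and lower in 1, with sums of 1352 to 1447 against 336 to 489 in cont. and 249 to 521 in Atg7-KO;p62T352A. The sums rose likewise for stellate cell and fibroblast markers, 8 of 10 of them called higher, and for cholangiocyte markers, 6 of 7 called higher. In Atg7-KO;p62T352A the stellate sums were 392.5 to 677.4 against 269.4 to 327.9 in cont. The cholangiocyte sums were 181.5 to 267.1 against 34.3 to 52.4. Against cont., Atg7-KO;p62T352A had 3 markers called higher and 0 lower in each of these 2 lists and in the macrophage list. Of all tested genes, 22.1% were called lower and 21.6% higher in Atg7-KO against cont. In Atg7-KO;p62T352A against cont. the shares were 5.34% lower and 6.25% higher. In whole liver a smaller number of hepatocytes and less RNA per hepatocyte cannot be told apart, and the part of cell composition in the results below was not tested.

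Loss of ATG7 was accompanied by lower expression of 16 of the 40 genes, among them Ppara itself, the acyl-CoA synthetase Acsl1, the import gatekeeper Cpt1a, 3 enzymes of the mitochondrial spiral, both subunits of ETF, the peroxisomal thiolases, Cyp4a10, Cyp4a14 and Fabp1. Cd36 and Vnn1 were the 2 genes called higher. The calls were 40% of the genes lower and 5.00% higher, against 22.1% of all tested genes called lower and 21.6% called higher. The median log2 fold change was -0.66 with 34 of 40 values below 0, where the median over all tested genes was -0.03. In Atg7-KO;p62T352A, 18 of the 40 genes were called higher than in Atg7-KO and 4 were called lower, which is 45.0% and 10.0%, against 24.7% and 26.2% of all tested genes, and the median was 0.79 with 0.0021 over all tested genes. Set against cont., Atg7-KO;p62T352A livers had 0 of the 40 genes called higher and 2 called lower, Ppara and Etfdh, where 6.25% and 5.34% of all tested genes were called, and the median was 0.07. At an unadjusted p under 0.05, 2 of the 40 genes were higher and 4 lower by over 1.5-fold in that comparison. DESeq2 called 1 gene higher, Etfb, and 3 lower, Ppara, Etfdh and Cpt1a. The 3 comparisons share mice, so their fold changes are not independent of each other.

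**Figure D1:**
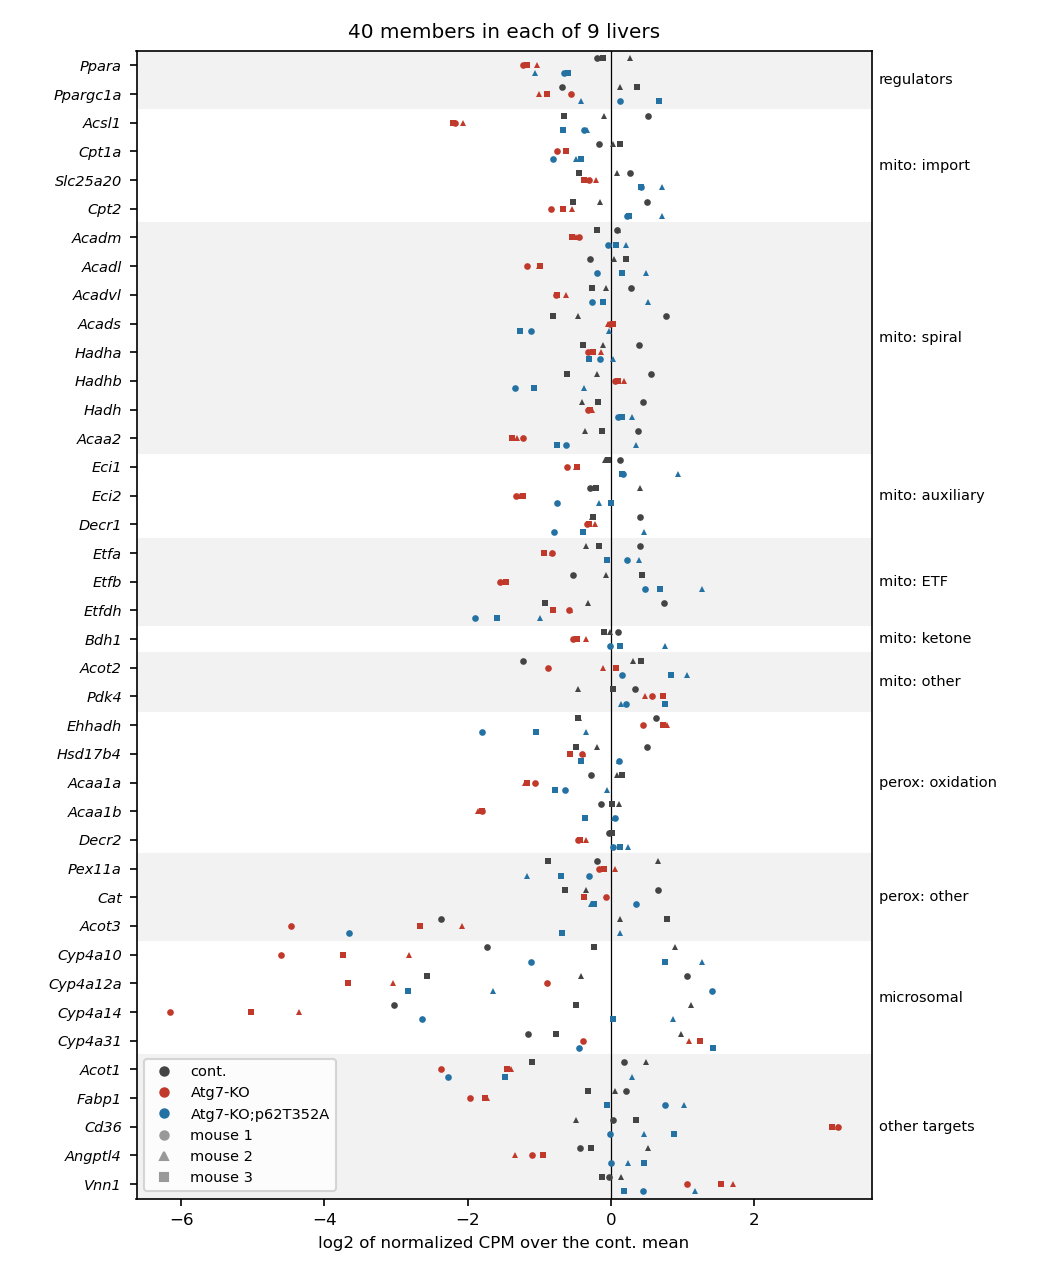
Log2 ratio of normalized CPM to the cont. mean (x axis) for the 40 genes (y axis, grouped by role) in each of the 9 livers, coloured by genotype and shaped by mouse number. The Atg7-KO points lie left of 0 for most genes and far right for Cd36, and the Atg7-KO;p62T352A points lie around 0 except for genes such as Ppara, Cpt1a and Etfdh.

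**Figure D2:**
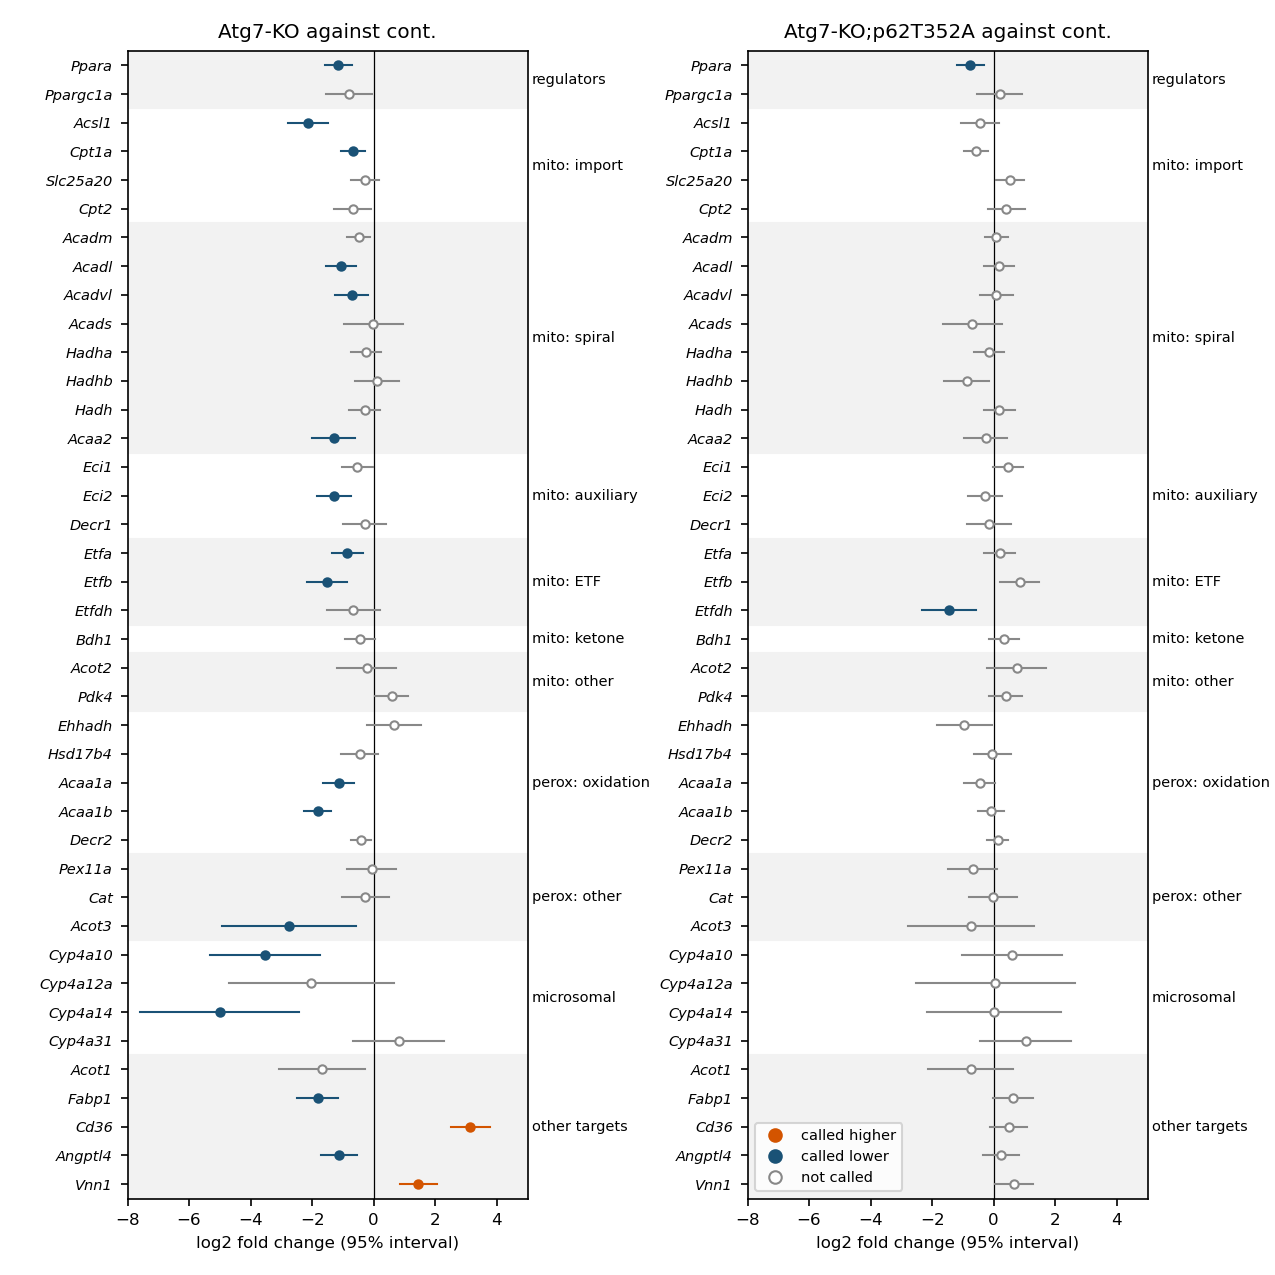
Log2 fold change with its 95% interval (x axis) of each of the 40 genes (y axis) in Atg7-KO and in Atg7-KO;p62T352A, both against cont. Filled points were called, 18 in the left panel and 2 in the right one.

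PPAR-alpha with RXR binds a direct repeat of AGGTCA spaced by 1 base, written AGGTCANAGGTCA. It was searched on both strands in the 250 bases before the start of each gene, in RefSeq promoters of GRCm38.p6, where 31 of the 40 genes had an entry. With at most 2 mismatches outside the spacer, 4 of these 31 genes, or 12.9%, held a match, as did 3.72% of all genes with a promoter, and with at most 3 mismatches the shares were 29.0% and 23.7%. The 4 matches are shown because 2 of their genes, Fabp1 and Etfa, fell in Atg7-KO, while Cd36 rose and Cat was not called. They are written 5′ to 3′ along the strand of the repeat with mismatched bases in capitals.
Fabp1, chr6:71199812-71199824, minus strand, 67 to 55 bases before the start: aggCcataggtca
Etfa, chr9:55512308-55512320, plus strand, 77 to 65 bases before the start: aggGcaaaggtAa
Cd36, chr5:17835947-17835959, plus strand, 63 to 51 bases before the start: aAgtcagaggCca
Cat, chr2:103485345-103485357, minus strand, 204 to 192 bases before the start: aggtcagagAAca
The 250 bases before the start of Fabp1, chr6:71199629-71199878 on the plus strand, hold that match in capitals: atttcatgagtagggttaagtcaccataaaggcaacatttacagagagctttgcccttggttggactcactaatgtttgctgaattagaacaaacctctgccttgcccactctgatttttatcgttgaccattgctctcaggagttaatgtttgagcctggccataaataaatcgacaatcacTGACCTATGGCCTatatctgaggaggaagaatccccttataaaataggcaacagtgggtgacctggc
A match is a description of these letters and not a binding site, and its absence from the window of the other genes says nothing about the receptor.

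The receptor Ppara was lower in Atg7-KO. It was at 184, 252 and 196 normalized CPM in the cont. mice 1, 2 and 3, at 90.1, 103 and 92.9 in Atg7-KO, while the Atg7-KO;p62T352A mice had 134, 101 and 139. Every Atg7-KO mouse and every Atg7-KO;p62T352A mouse was below every cont. mouse. The log2 fold change against cont. was -1.14 ± 0.19 (SE) in Atg7-KO (adjusted p = 0.0014) and -0.76 ± 0.19 in Atg7-KO;p62T352A (adjusted p = 0.0346), and the step between both Cre lines, 0.39 ± 0.19, was not called (adjusted p = 0.114). The call in Atg7-KO;p62T352A was lost when cont. mouse 2 or any of the 6 mice of the Cre lines was left out, with an adjusted p of 0.0711 to 0.0882, and with mouse number as a replicate block (adjusted p = 0.0777).

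The co-activator gene Ppargc1a was at a low level throughout. It read 8.37, 14.7 and 17.3 normalized CPM in cont., 9.09, 6.66 and 7.25 in Atg7-KO, while the Atg7-KO;p62T352A mice had 14.7, 10.0 and 21.3. Atg7-KO overlapped cont. because cont. mouse 1 was low, and the difference of -0.80 ± 0.33 on the log2 scale was not called (adjusted p = 0.0715). It was called by DESeq2 (-0.82, adjusted p = 0.0425), with an offset for transcript length (adjusted p = 0.0348), in the mice numbered 2 and 3 alone (adjusted p = 0.0144) and without cont. mouse 1, at -1.06 (adjusted p = 0.00903). All Atg7-KO;p62T352A mice were above all Atg7-KO mice, and this rise of 1.00 ± 0.33 was called (adjusted p = 0.0268), although not when Atg7-KO mouse 2 or 3 or Atg7-KO;p62T352A mouse 1 or 3 was left out (adjusted p = 0.0536 to 0.112).

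Among the genes that activate long chains and bring them into mitochondria, Acsl1, which makes acyl-CoA, changed most. Its values were 1449, 941 and 638 normalized CPM in cont., 223, 242 and 219 in Atg7-KO, while the Atg7-KO;p62T352A mice had 779, 802 and 636. The groups cont. and Atg7-KO were apart by 4.43-fold (log2 -2.15 ± 0.29, adjusted p = 0.000411), and Atg7-KO;p62T352A was 3.24-fold above Atg7-KO (adjusted p = 0.00107), where its mice overlapped cont. (adjusted p = 0.325).

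Cpt1a, which encodes the rate-limiting step of import, fell in Atg7-KO and was not called higher in Atg7-KO;p62T352A. It was at 254, 293 and 312 normalized CPM in cont., at 170, 185 and 185 in Atg7-KO, while the Atg7-KO;p62T352A mice had 164, 204 and 215. Neither Cre line reached the lowest cont. mouse. The log2 fold change of Atg7-KO was -0.67 ± 0.17 (adjusted p = 0.0116), lost without Atg7-KO mouse 1 (adjusted p = 0.0564) and, for its size, with upper-quartile scaling (-0.55). Between the Cre lines it was 0.11 ± 0.17 with a 95% interval of -0.28 to 0.50 (adjusted p = 0.606), and Atg7-KO;p62T352A against cont. was -0.56 ± 0.17, not called by edgeR (adjusted p = 0.0673) but called by DESeq2 (adjusted p = 0.00238) and without cont. mouse 1 (adjusted p = 0.0159).

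The carrier gene Slc25a20 was at 112, 99.3 and 68.8 normalized CPM in cont., 75.3, 80.8 and 72.2 in Atg7-KO, while the Atg7-KO;p62T352A mice had 125, 153 and 125. Its cont. and Atg7-KO mice overlapped (log2 -0.30 ± 0.20, adjusted p = 0.259), and the Atg7-KO;p62T352A mice were above all others, called against Atg7-KO (0.82 ± 0.20, adjusted p = 0.00809) and not against cont. (adjusted p = 0.129), except without cont. mouse 1 (adjusted p = 0.0244). Cpt2, of the inner membrane, had group means of 131 ± 48.7 (SD, n = 3), 81.7 ± 8.01 and 175 ± 34.4 and was called by the main edgeR fit in Atg7-KO;p62T352A against Atg7-KO alone (1.10 ± 0.27, adjusted p = 0.0072). Its fall in Atg7-KO was called by DESeq2 (-0.72, adjusted p = 0.037), with the length offset (adjusted p = 0.0475) and without cont. mouse 3 (adjusted p = 0.0194), and its rise against cont. in the mice numbered 2 and 3 alone (adjusted p = 0.0327) and without cont. mouse 1 (adjusted p = 0.0213). So 3 of the 4 import genes were called higher in Atg7-KO;p62T352A than in Atg7-KO, and Cpt1a was the exception. Of all tested genes 24.7% were called higher and 26.2% lower in that comparison.

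Of the 8 genes of the spiral itself, Acadvl and Acadl, the dehydrogenases of very long and long chains, and the thiolase Acaa2 were called lower in Atg7-KO. That is 37.5%, against 22.1% of all tested genes called lower. The group means of Acadl were 219 ± 37.9, 105 ± 7.09 and 247 ± 58.6 normalized CPM in cont., Atg7-KO and then Atg7-KO;p62T352A, and those of Acadvl were 294 ± 58.5, 179 ± 9.46 and 312 ± 95.1. Acaa2 was at 855, 514 and 605 in cont., at 282, 264 and 253 in Atg7-KO, while the Atg7-KO;p62T352A mice had 426, 841 and 388. All Atg7-KO values of Acaa2 were below all others, and its fall was 2.47-fold (log2 -1.31 ± 0.32, adjusted p = 0.00846). The call of Acadvl (-0.72 ± 0.24, adjusted p = 0.0345) was less stable: it was lost when cont. mouse 1 or 2 or any Atg7-KO mouse was left out (adjusted p = 0.0536 to 0.104), with upper-quartile scaling (adjusted p = 0.0717), with at least 10 counts in every mouse (adjusted p = 0.0504) and in the mice numbered 2 and 3 alone (adjusted p = 0.0902). Against Atg7-KO the same 3 genes were called higher in Atg7-KO;p62T352A, Acadl by 1.23 on the log2 scale (adjusted p = 0.00143), Acaa2 by 1.05 (adjusted p = 0.0186) and Acadvl by 0.80 (adjusted p = 0.0188). The calls of Acaa2 and Acadvl were lost without Atg7-KO mouse 2 or 3 or Atg7-KO;p62T352A mouse 2, and that of Acadvl also without Atg7-KO mouse 1 (adjusted p = 0.0518 to 0.0659).

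The remaining 5 genes of the spiral were not called in Atg7-KO. Acadm, the medium-chain dehydrogenase, was at 300 ± 32.3, 214 ± 7.43 and 318 ± 28.9 normalized CPM and passed the false discovery rate (adjusted p = 0.0359) but not the fold limit, at 1.41-fold lower. Acads, the short-chain dehydrogenase, had means of 94.1 ± 57.6 and 93.7 ± 2.44 in cont. and Atg7-KO and 58.3 ± 29.6 in Atg7-KO;p62T352A. Hadha and Hadhb encode the subunits of the trifunctional protein, which acts on long chains, and Hadh acts on short ones. Hadha had means of 244 ± 68.6, 207 ± 13.9 and 221 ± 25.4, and Hadh of 263 ± 84.3, 215 ± 4.65 and 299 ± 20.8.

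Hadhb went the other way in Atg7-KO;p62T352A. Its values were 281, 167 and 124 normalized CPM in cont., 198, 217 and 203 in Atg7-KO, while the Atg7-KO;p62T352A mice had 75, 147 and 90.9. The Atg7-KO mice lay within the cont. range (log2 0.11 ± 0.32, adjusted p = 0.799), and all Atg7-KO;p62T352A mice were below them (-0.98 ± 0.33, adjusted p = 0.0288). This call was lost without any 1 of the Atg7-KO mice or without Atg7-KO;p62T352A mouse 1 or 3 (adjusted p = 0.0617 to 0.104). Of the 75-base stretches of Hadhb transcripts, 16.7% also occur in other transcripts, most often those of Gm13910, Gm9108 and Gm40264, so reads may be split between them.

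Eci1, Eci2 and Decr1 prepare unsaturated chains for the spiral. Eci2, which is found in mitochondria and in peroxisomes and is counted here as mitochondrial, was at 159, 257 and 167 normalized CPM in cont., 77.5, 79.8 and 82.6 in Atg7-KO, while the Atg7-KO;p62T352A mice had 115, 173 and 195. Its Atg7-KO mice were below all others, 2.43-fold against cont. (log2 -1.28 ± 0.25, adjusted p = 0.00295), and it was called higher in Atg7-KO;p62T352A than in Atg7-KO (2.02-fold, adjusted p = 0.00749). Decr1, the least changed of the 3, was at 196, 123 and 125 in cont., 117, 127 and 119 in Atg7-KO, while the Atg7-KO;p62T352A mice had 85.0, 204 and 113, with overlap of all groups. Eci1 had means of 112 ± 8.73, 77.5 ± 4.28 and 154 ± 51.1 and was called only in Atg7-KO;p62T352A against Atg7-KO, where it was 1.99-fold higher (adjusted p = 0.00507).

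The 3 genes that hand electrons from the spiral to the respiratory chain did not move together. Etfa and Etfb encode the subunits of ETF, and both were called lower in Atg7-KO and higher again in Atg7-KO;p62T352A. Etfb was at 265, 365 and 515 normalized CPM in cont., 130, 132 and 139 in Atg7-KO, while the Atg7-KO;p62T352A mice had 529, 920 and 610, where all mice were above all cont. mice. Its log2 fold changes were -1.51 ± 0.29 in Atg7-KO (adjusted p = 0.00246) and 0.85 ± 0.28 in Atg7-KO;p62T352A against cont., which was not called (adjusted p = 0.081). From Atg7-KO to Atg7-KO;p62T352A it rose by 2.36 (adjusted p = 0.000246), and Etfa by 1.06 (adjusted p = 0.00373). Etfa had means of 313 ± 89.0, 172 ± 7.10 and 359 ± 53.6, and its call in Atg7-KO (-0.86 ± 0.23, adjusted p = 0.0119) was lost without Atg7-KO mouse 3 (adjusted p = 0.053). For Etfb, 39.6% of the 75-base stretches also occur in Gm45233, so its level is less certain.

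Etfdh, whose product takes the electrons from ETF to ubiquinone, was at 325, 156 and 103 normalized CPM in cont., 130, 130 and 111 in Atg7-KO, while the Atg7-KO;p62T352A mice had 52.0, 98.1 and 64.9. The Atg7-KO mice overlapped cont. (log2 -0.66 ± 0.39, adjusted p = 0.192), and all Atg7-KO;p62T352A mice were below all mice of both other groups. Against cont. this was a log2 fold change of -1.44 ± 0.40 (adjusted p = 0.0435). The call did not hold without cont. mouse 2 or without any 1 of the 6 mice of the Cre lines (adjusted p = 0.0556 to 0.143), nor with the replicate block (adjusted p = 0.0742), nor in the mice numbered 2 and 3 alone (-0.67, adjusted p = 0.111). Without cont. mouse 1 it was -0.85 and still called. From Atg7-KO to Atg7-KO;p62T352A the fall was called without cont. mouse 1 (-0.78, adjusted p = 0.0155) and not with all mice.

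Bdh1, which turns acetoacetate into β-hydroxybutyrate at the end of ketone body synthesis, was at 188, 173 and 163 normalized CPM in cont., 121, 137 and 126 in Atg7-KO, while the Atg7-KO;p62T352A mice had 174, 294 and 191. The Atg7-KO mice were below all cont. mice, but by 1.37-fold (adjusted p = 0.112), which was not called. Against Atg7-KO, Atg7-KO;p62T352A was 1.72-fold higher (adjusted p = 0.0128), a call lost without Atg7-KO mouse 1 (adjusted p = 0.0535) and, for its size, without Atg7-KO;p62T352A mouse 2 (log2 0.51).

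Pdk4, the kinase that shuts pyruvate dehydrogenase when fat is burned, and Acot2, a matrix thioesterase, were both low and not called by the main edgeR fit in any of the 3 comparisons. Pdk4 was at 14.3, 8.23 and 11.5 normalized CPM in cont., 16.8, 15.8 and 18.8 in Atg7-KO, while the Atg7-KO;p62T352A mice had 13.1, 12.5 and 19.2. All Atg7-KO mice were above all cont. mice (log2 0.59 ± 0.24, adjusted p = 0.0706), and the rise was called without cont. mouse 1 (0.80, adjusted p = 0.0131), with upper-quartile scaling (adjusted p = 0.0479) and with at least 10 counts in every mouse (adjusted p = 0.0477). Acot2 was at 3.90, 11.4 and 12.2 in cont., 4.98, 8.51 and 9.56 in Atg7-KO, while the Atg7-KO;p62T352A mice had 10.2, 19.1 and 16.4. All Atg7-KO;p62T352A mice were above all Atg7-KO mice for Acot2, by a log2 of 0.99 ± 0.42 (adjusted p = 0.0729), which was called by DESeq2 (adjusted p = 0.0492), with the replicate block (adjusted p = 0.00859), in the mice numbered 2 and 3 alone (adjusted p = 0.00201) and without cont. mouse 1 (adjusted p = 0.00956). Against cont. it was called in the mice numbered 2 and 3 alone (0.59, adjusted p = 0.0481). Of its 75-base stretches, 21.2% are shared with other transcripts, most often those of Acot1, Acot5 and Acot4.

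Acaa1b, a thiolase, was at 1150, 1365 and 1274 normalized CPM in cont., 364, 348 and 362 in Atg7-KO, while the Atg7-KO;p62T352A mice had 1315, 1306 and 979. The fall was 3.52-fold (log2 -1.82 ± 0.19, adjusted p = 0.000127), and the return in Atg7-KO;p62T352A was 3.35-fold (adjusted p = 0.000144), to -0.07 ± 0.19 against cont. Its neighbour Acaa1a, also a thiolase, had means of 183 ± 29.0, 83.2 ± 4.29 and 134 ± 37.7 and was called lower in Atg7-KO (adjusted p = 0.00298). Its rise in Atg7-KO;p62T352A against Atg7-KO (0.68, adjusted p = 0.0262) was lost without any 1 Atg7-KO mouse or without Atg7-KO;p62T352A mouse 2 (adjusted p = 0.0619 to 0.0881), with upper-quartile scaling (adjusted p = 0.061) and, for its size, with the length offset (0.52). Acaa1b shares 32.3% of its 75-base stretches with Acaa1a or Dlec1 and Acaa1a 12.6% with Acaa1b or Myd88, so their separate values are less certain.

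Ehhadh, which carries out the middle steps of peroxisomal β-oxidation, was not called in Atg7-KO. It was at 396, 188 and 186 normalized CPM in cont., 351, 443 and 424 in Atg7-KO, while the Atg7-KO;p62T352A mice had 73.8, 201 and 124. Cont. mouse 1 was in the range of the Atg7-KO mice and the other cont. mice were below it. The log2 fold change in Atg7-KO was 0.66 ± 0.39 (adjusted p = 0.191), and without cont. mouse 1 it was 1.12 and called (adjusted p = 0.0181). Every Atg7-KO;p62T352A mouse was below every Atg7-KO mouse, 3.05-fold in the fit (-1.61 ± 0.40, adjusted p = 0.00773).

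The other bifunctional enzyme gene, Hsd17b4, had means of 296 ± 109, 217 ± 14.9 and 287 ± 57.0 normalized CPM and was not called. Decr2, the peroxisomal reductase for unsaturated chains, was at 205 ± 3.38, 154 ± 5.71 and 225 ± 16.5, a drop that passed the false discovery rate (adjusted p = 0.046) at 1.33-fold. Catalase (Cat), which removes the hydrogen peroxide of peroxisomal oxidation, had means of 2500 ± 1268, 2080 ± 261 and 2456 ± 633 and was not called, with an interval for Atg7-KO against cont. of -1.04 to 0.51 on the log2 scale. Pex11a, a factor of peroxisome division, was at 26.0, 47.0 and 16.2 in cont., 26.5, 30.7 and 27.8 in Atg7-KO, while the Atg7-KO;p62T352A mice had 24.1, 13.2 and 18.3. Its Atg7-KO mice lay inside the cont. range (log2 -0.07 ± 0.35, adjusted p = 0.886).

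Acot3, a peroxisomal thioesterase, had the largest fall among the peroxisomal genes and the widest error. Its values were 5.39, 30.5 and 47.7 normalized CPM in cont., 1.26, 6.62 and 4.39 in Atg7-KO, while the Atg7-KO;p62T352A mice had 2.21, 30.4 and 17.4. Mouse 1 was the lowest mouse of each genotype, and the groups overlapped through cont. mouse 1. The log2 fold change of -2.75 ± 0.97 (adjusted p = 0.0424) was lost without cont. mouse 2 or 3, any Atg7-KO mouse or Atg7-KO;p62T352A mouse 3 (adjusted p = 0.061 to 0.127). With at least 10 counts in every mouse the adjusted p was 0.0505, and in the mice numbered 2 and 3 alone the fall was -2.82 (adjusted p = 0.000342).

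The 4 Cyp4a genes lie on chromosome 4 of mm10, at chr4:115486200-115496142 for Cyp4a14, chr4:115518264-115533649 for Cyp4a10, chr4:115299046-115332815 for Cyp4a12a and chr4:115563649-115579015 for Cyp4a31, and Cyp4a14 and Cyp4a10 had the largest folds of all 40 genes. Cyp4a14 was at 79.0, 1400 and 459 normalized CPM in cont., 9.04, 31.5 and 19.8 in Atg7-KO, while the Atg7-KO;p62T352A mice had 104, 1181 and 658. All Atg7-KO mice were below all others, although cont. mice 1 and 2 themselves lay far apart. The fall was 32.1-fold (log2 -5.01 ± 1.15, 95% interval -7.59 to -2.43, adjusted p = 0.00656), and against cont. Atg7-KO;p62T352A was at 0.0040 ± 0.97 (adjusted p = 0.999). Without cont. mouse 2 the fall was -3.78 (adjusted p = 0.0187), with the replicate block it was -4.35, and the rise of 5.01 from Atg7-KO to Atg7-KO;p62T352A was 4.25 without Atg7-KO;p62T352A mouse 2.

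Cyp4a10 followed the same order. Its values were 187, 1149 and 527 normalized CPM in cont., 25.5, 88.1 and 46.5 in Atg7-KO, while the Atg7-KO;p62T352A mice had 288, 1499 and 1049. In each genotype mouse 1 was lowest and mouse 2 highest, as for Cyp4a14. The fall was 11.6-fold (log2 -3.54 ± 0.80, adjusted p = 0.00588) and the rise from Atg7-KO to Atg7-KO;p62T352A 17.7-fold (4.15 ± 0.82, adjusted p = 0.00249). Without cont. mouse 2 the fall of Cyp4a10 was -2.79 on the log2 scale (adjusted p = 0.0179). In the mice numbered 2 and 3 alone the fall was -3.64 for Cyp4a10 (adjusted p = 0.000416) and -5.18 for Cyp4a14 (adjusted p = 0.000258).

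Cyp4a12a had the opposite order of mice. It was at 491, 177 and 39.9 normalized CPM in cont., 127, 28.7 and 18.6 in Atg7-KO, while the Atg7-KO;p62T352A mice had 625, 75.4 and 33.0, so that mouse 1, with low Xist, was highest in each genotype and mouse 3 lowest. The groups overlapped and the log2 fold change of -2.02 ± 1.2 was not called (adjusted p = 0.193), but both Atg7-KO mice numbered 2 and 3 were below both cont. mice of these numbers, and in these mice alone the fall was called (-2.20, adjusted p = 0.0202), as it was with the replicate block (-1.90, adjusted p = 0.00532). Both fits keep cont. mouse 2, which had Y-linked RNA beside Xist and gave the higher of the 2 cont. values there, while cont. mouse 3 at 39.9 lay nearer to the Atg7-KO mice at 28.7 and 18.6. With cont. mouse 2 left out and the other 8 mice kept, the fall was not called (-2.31, adjusted p = 0.216). Among the mice with low Xist the value in Atg7-KO was also below that in cont. Of the 75-base stretches of Cyp4a12a, 40.8% also occur in Cyp4a12b.

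Cyp4a31 was low and was not called in any of the 3 comparisons. It was at 4.87, 21.5 and 6.37 normalized CPM in cont., 8.32, 23.1 and 25.8 in Atg7-KO, while the Atg7-KO;p62T352A mice had 8.00, 29.2 and 29.4. Its Atg7-KO mice overlapped cont., with a log2 fold change of 0.82 ± 0.66 and an interval of -0.66 to 2.3 (adjusted p = 0.337).

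**Figure D3:**
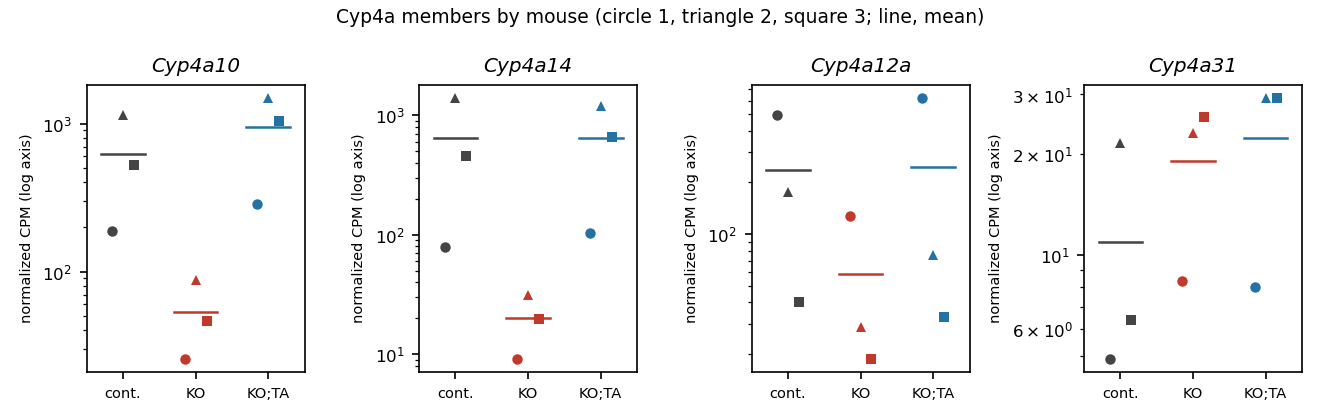
Normalized CPM (log y axis) of the 4 Cyp4a genes in cont., Atg7-KO (KO) and Atg7-KO;p62T352A (KO;TA), 1 symbol per mouse with the mean as a line. Mouse 1 is lowest in each genotype for Cyp4a10 and Cyp4a14 and highest for Cyp4a12a.

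Among the genes outside these compartments, Fabp1 and Cd36 moved in opposite directions. Fabp1, the fatty acid binding protein of the liver cytosol, was at 3808, 3423 and 2629 normalized CPM in cont., 840, 989 and 970 in Atg7-KO, while the Atg7-KO;p62T352A mice had 5542, 6668 and 3158. All Atg7-KO mice were below all others (3.52-fold, log2 -1.82 ± 0.30, adjusted p = 0.00118), and from Atg7-KO to Atg7-KO;p62T352A it rose by 2.46 (adjusted p = 0.000241), or by 1.61 with the offset for transcript length, under which its difference from cont. went from 0.64 to -0.01. Its promoter and that of Cd36 hold matches to the direct repeat printed above. Cd36, a fatty acid receptor at the cell surface, was at 42.2, 29.5 and 52.9 in cont., 374, 373 and 354 in Atg7-KO, while the Atg7-KO;p62T352A mice had 41.0, 57.3 and 76.3. All Atg7-KO mice were above all others, 8.84-fold against cont. (log2 3.14 ± 0.29, adjusted p = 5.91e-05), and the Atg7-KO;p62T352A mice overlapped cont. (adjusted p = 0.266) and were called lower than Atg7-KO (-2.66, adjusted p = 0.000117).

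Macrophages, endothelial cells and adipocytes also express Cd36. The macrophage markers rose in the same mice as given above. The endothelial sums were 391 to 631 normalized CPM in cont., 381 to 405 in Atg7-KO, while the Atg7-KO;p62T352A mice had 283 to 304, with 3 of 8 markers called higher and 2 lower in Atg7-KO, and the adipocyte sums stayed between 0.0853 and 2.07 in all mice, with Lep at 0 in every mouse. The part of macrophages in the level of Cd36 was not tested.

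Vnn1, a pantetheinase on the cell surface, had means of 29.7 ± 2.88, 81.4 ± 17.7 and 46.9 ± 17.4 normalized CPM and rose 2.74-fold from cont. to Atg7-KO (adjusted p = 0.00232). It was called lower in Atg7-KO;p62T352A than in Atg7-KO (-0.80 ± 0.27, adjusted p = 0.0303), although 1 mouse overlapped, and not without Atg7-KO mouse 2 or 3 or Atg7-KO;p62T352A mouse 1 or 3 (adjusted p = 0.0846 to 0.11). Angptl4, a secreted inhibitor of lipoprotein lipase, went the other way, with means of 141 ± 53.0, 64.7 ± 8.73 and 167 ± 26.6 (adjusted p = 0.00744 in Atg7-KO). Acot1, the cytosolic thioesterase, was at 32.3 ± 15.5, 10.1 ± 3.35 and 19.3 ± 17.8 and missed the threshold in Atg7-KO (-1.68 ± 0.63, adjusted p = 0.0527), while it was called by DESeq2 (adjusted p = 0.0136), with no filter (adjusted p = 0.0414), with the replicate block (adjusted p = 0.0314), with the length offset (adjusted p = 0.044) and without cont. mouse 3 or Atg7-KO;p62T352A mouse 1 or 2 (adjusted p = 0.0155 to 0.033).

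**Figure D4:**
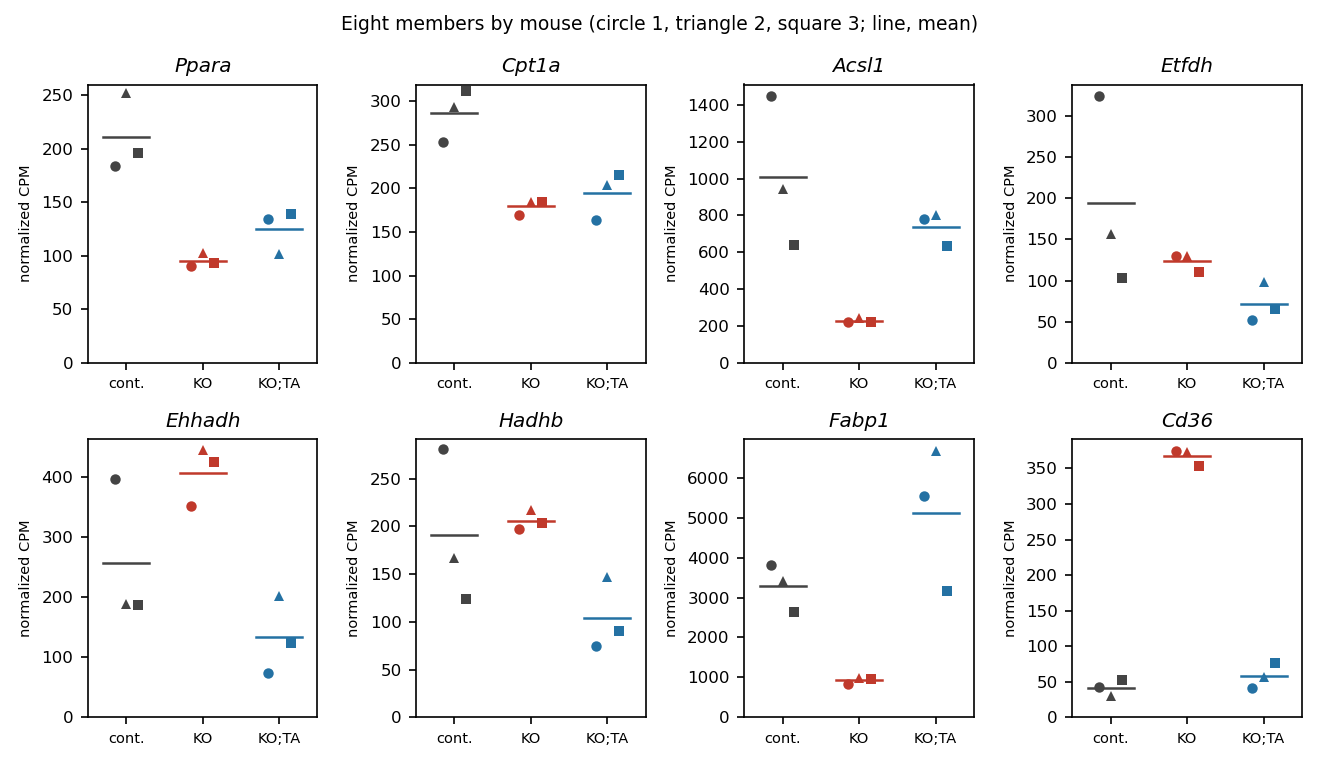
Normalized CPM (y axis from 0) of 8 genes in cont., Atg7-KO (KO) and Atg7-KO;p62T352A (KO;TA), 1 symbol per mouse with the mean as a line. Acsl1, Fabp1 and Cd36 leave the cont. range in Atg7-KO and come back to it or pass it in Atg7-KO;p62T352A, Ppara and Cpt1a stay below the cont. mice, and Etfdh, Ehhadh and Hadhb are lowest on average in Atg7-KO;p62T352A.

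By compartment in Atg7-KO against cont., of the 21 mitochondrial genes 8 were called lower, which is 38.1%, with a median log2 fold change of -0.53. Peroxisomal genes were called lower in 3 of 8 cases, or 37.5%, with a median of -0.43, and the 4 microsomal genes had 2 called lower and a median of -2.78. Over all tested genes 22.1% were called lower and 21.6% higher. No gene of the 3 compartments was called higher by the main edgeR fit or by DESeq2, and at an unadjusted p under 0.05 only Pdk4 was higher by over 1.5-fold. In the mice numbered 2 and 3 alone edgeR called Ehhadh (1.21, adjusted p = 0.00366) and Pdk4 (0.81, adjusted p = 0.0279) higher. Both were also called without cont. mouse 1, and Pdk4 under the scaling and filter named above. The range was -2.15 to 0.59 for the mitochondrial, -2.75 to 0.66 for the peroxisomal and -5.01 to 0.82 for the microsomal genes.

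In Atg7-KO;p62T352A against Atg7-KO, 11 mitochondrial genes were called higher and 1 lower with a median of 0.80, 2 peroxisomal genes were called higher and 1 lower with a median of 0.48, and 2 microsomal genes were called higher with a median of 3.11. Of all tested genes 24.7% were called higher and 26.2% lower, so the 2 of 8 peroxisomal genes called higher were no more than the background, and the mitochondrial share was 52.4%. Against cont., edgeR called only Etfdh among the 33 genes of the 3 compartments, while DESeq2 also called Etfb and Cpt1a. The medians were 0.08, -0.26 and 0.33. Within single mice the median difference from the cont. mean was -0.62 to -0.48 for the mitochondrial and -0.47 to -0.34 for the peroxisomal genes in the 3 Atg7-KO mice, below all cont. mice in both. For the microsomal genes it was -3.20 to -2.24 in Atg7-KO, while the cont. mice ranged from -1.10 to 1.26. No test was made between compartments, since the genes of a compartment are not replicates.

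**Figure D5:**
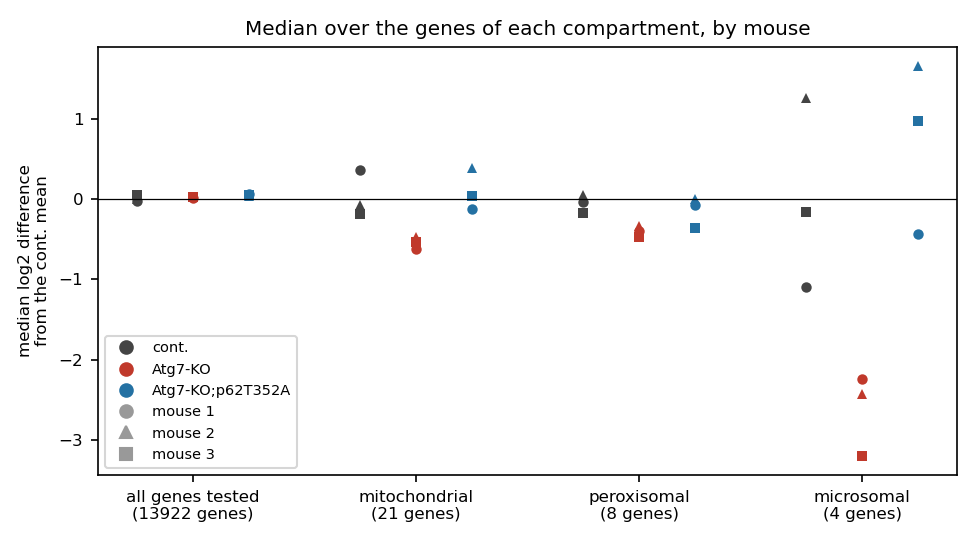
Median over the genes of a compartment of the log2 difference from the cont. mean (y axis) in each mouse, for all tested genes and for the mitochondrial, peroxisomal and microsomal genes. All tested genes stay near 0 in every mouse, the Atg7-KO mice are below the cont. mice in the 3 compartments, and the microsomal values spread most.

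Per kilobase of the longest protein-coding transcript in GENCODE vM21, Fabp1 was the most abundant of the 40 in every genotype, with a mean level of 5943 normalized CPM per kilobase in cont., 1688 in Atg7-KO, while the Atg7-KO;p62T352A mice had 9264. Cat was next, at 957, 796 and 940, and Acaa1b had 748 in cont., 212 in Atg7-KO, while the Atg7-KO;p62T352A mice had 711. Ppargc1a had the lowest level in cont., at 2.08 per kilobase, and Acot3 and Ppargc1a were lowest in Atg7-KO, at 1.19 each. Cyp4a14 moved through the order, from 259 in cont. to 8.05 in Atg7-KO, while the Atg7-KO;p62T352A mice had 259, and Cd36 from 12.2 to 108 and 17.1.

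Other genes of the same pathways were compared next in Atg7-KO against cont. Their lists were drawn up by function with earlier results of these data known, so their shares are no independent support. All the counts that follow stand beside 22.1% of all tested genes called lower and 21.6% called higher. Of 20 further tested genes of mitochondrial fatty acid oxidation, 10 were called lower and 2 higher. The largest falls were in Pccb, a subunit of propionyl-CoA carboxylase, from 255 ± 12.3 to 71.3 ± 7.93 normalized CPM (log2 -1.84, adjusted p = 7e-05), and in Acsm5, a medium-chain acyl-CoA synthetase (-1.43, adjusted p = 0.00168). Acot9, a mitochondrial thioesterase, rose from 3.29 ± 0.50 to 20.1 ± 1.48 (2.61, adjusted p = 3.8e-05), and Acad12 rose by 1.42 (adjusted p = 0.00353).

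For ketone body synthesis, use and export, 4 of 9 genes were called lower and 2 higher, the latter being 22.2% and near the background. Bdh2 fell by 1.58 on the log2 scale (adjusted p = 0.00265) and Sirt3, a mitochondrial deacylase, by 1.35 (adjusted p = 0.000146). Oxct1, the enzyme that extrahepatic tissues need to use ketone bodies and that hepatocytes lack, rose from 4.46 ± 0.84 to 19.9 ± 0.61 normalized CPM (2.15, adjusted p = 0.000185), in the mice whose markers of other liver cells were also higher, whose part was not tested. The monocarboxylate transporter Slc16a1 rose by 1.21 (adjusted p = 0.00575).

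Among the other peroxisomal enzymes and transporters, 14 of 29 tested genes were called lower and 2 higher. Nudt7, a CoA hydrolase, fell most (-2.86, adjusted p = 0.00307). Agps, of ether lipid synthesis, and the carrier Slc25a17 rose, by 1.12 (adjusted p = 0.0023) and 0.75 (adjusted p = 0.0263). Of the 15 peroxisome biogenesis factors 6 were called lower, led by Pex10 (-1.26, adjusted p = 0.00578) and Pex26 (-1.17, adjusted p = 0.00274), and none was called higher by edgeR, by DESeq2 or at an unadjusted p under 0.05.

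For the other omega-hydroxylases and fatty aldehyde enzymes, 6 of 11 tested genes were called lower and 2 higher. The largest falls were in Cyp4a32 (-3.12, adjusted p = 0.00028) and Cyp4f15 (-2.47, adjusted p = 0.00131), and the rises in Cyp4f18 (2.52, adjusted p = 0.0019) and Cyp4f16 (2.17, adjusted p = 0.000322). Of the PPAR receptors, partners and co-regulators, 9 of 24 were called lower and 3 higher. Ppargc1b, a relative of Ppargc1a, fell from 22.1 ± 16.5 to 1.83 ± 0.17 normalized CPM (-3.58, adjusted p = 0.0036) and Lpin1 by 1.96 (adjusted p = 0.0128), while Pparg, the receptor of adipocytes, rose from 9.24 ± 1.53 to 27.4 ± 1.44 (1.57, adjusted p = 0.000397) and the AMPK subunit gene Prkaa2 by 1.06 (adjusted p = 0.0369).

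Further PPAR-alpha targets were called lower in 9 of 25 tested cases and higher in 5, the latter a share near the background. Sult2a8, a liver sulfotransferase, fell from 809 ± 420 to 20.2 ± 10.3 normalized CPM (-5.33, adjusted p = 9.3e-05), and the lipid droplet gene Plin4 fell by 3.21 (adjusted p = 0.0327), with a cont. mean of 47.4 ± 68.3. Fgf21, a hormone that fasting liver secretes, rose from 0.575 ± 0.598 to 6.25 ± 0.256 (3.55, adjusted p = 0.00192), and Cidec, another lipid droplet gene, rose from 1.25 ± 0.47 to 11.7 ± 2.02 (3.23, adjusted p = 0.00115). In Atg7-KO;p62T352A against cont., where 6.25% of all tested genes were called higher and 5.34% lower, each of these lists had at most 1 gene called higher and at most 3 called lower, the 3 being among the 20 further genes of mitochondrial fatty acid oxidation. In lists of this size such low counts are no result about the lists.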

How the data were processed

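The authors prepared poly(A) RNA libraries from whole liver, sequenced them as single-end reads, trimmed the reads with Trim Galore, aligned them to mm10 with STAR and deposited RSEM expected counts per gene; tool versions, annotation and strand setting are not given in the sources used here. The expected counts were rounded to whole numbers. With edgeR 4.0.16 in R 4.3.3, genes were filtered by filterByExpr, scaled by TMM and fitted by the quasi-likelihood method with the 3 genotypes in 1 model of 9 mice, and p-values were adjusted over all 13922 tested genes. Standard errors were derived from the F statistic. The study describes the mice as biological replicates, and p-values measure the spread between these mice. The 40 genes and the other lists were chosen with earlier results of these data known. All 40 genes are described, with mouse-by-mouse values for the regulators, Cpt1a, the Cyp4a genes and the largest rise and fall in each role, and of each other list the 2 largest called changes in each direction in Atg7-KO are named, except 1 result that is not reported here. DESeq2 1.42.0, other scalings and filters, a replicate block, a length offset and the omission of single mice were run as alternatives. Shared stretches and lengths came from GENCODE vM21 transcripts. The fit was tested on simulated data. The 3 p62T352A mice were not analysed here.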

Additional observations from a re-analysis of the deposited data

How the results depend on the processing

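The 120 fold changes of the 40 genes were refitted under up to 18 alternatives, 2160 refits in all, of which 1977 kept direction and call, 63 lost the call and 44 gained one. In 76 refits, over 30 of the fold changes, the sign changed, and in 0 of these was either value called. The genes called lower in Atg7-KO numbered 13 to 19 over all alternatives against 16, and those called higher in Atg7-KO;p62T352A than in Atg7-KO 14 to 21 against 18. The cause of the changes below was not tested, and depth in the smallest library, 9671080 counts, limits the genes at low levels.

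Genes called higher in Atg7-KO were 4 with the mice numbered 2 and 3 alone and 2 to 4 with single mice left out, 4 without cont. mouse 1, while the peroxisomal median was -0.28 and -0.58 to -0.30 in the same order. Genes called lower in Atg7-KO;p62T352A than in Atg7-KO were 2 to 5 with single mice left out. Against cont., genes called higher were 1 by DESeq2, 2 with the mice numbered 2 and 3 alone and 0 to 2 with single mice left out, genes called lower were 1 with the mice numbered 2 and 3 alone and 0 to 3 with single mice left out, and the peroxisomal median was -0.48 with the length offset. Upper-quartile scaling moved the median of all genes from -0.03 to 0.08 in Atg7-KO against cont. and from 0.0021 to -0.14 in Atg7-KO;p62T352A against Atg7-KO.

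With the replicate block, a paired fit by mouse number, 18 genes were called lower in Atg7-KO, 21 were called higher in Atg7-KO;p62T352A than in Atg7-KO, and 0 were called lower in Atg7-KO;p62T352A than in cont., and Cat (0.041) and Cyp4a12a (-0.39) against cont. and Acads (0.10) in Atg7-KO changed sign. Same-numbered mice correlated by a mean of 0.22, -0.030 and 0.25 in their deviations from the group means, and 6 of 9 mice correlated best with their own number. The labels name no pairs, and the main fit held genotype alone. The source of the likeness between same-numbered mice was not tested, and only the replicate block takes the number into account.

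Log2 fold changes that changed sign in Atg7-KO against cont. were Acads (0.095) and Pex11a (0.053) with upper-quartile scaling, Acads (0.083) and Pex11a (0.013) with at least 10 counts in every mouse, and Acads (0.62), Hadha (0.051), Hadh (0.0086) and Cat (0.12) with the mice numbered 2 and 3 alone. With single mice left out, those whose range held both signs were Acads (-0.30 to 0.61), Hadha (-0.40 to 0.0062), Hadhb (-0.13 to 0.50), Acot2 (-0.61 to 0.031), Pex11a (-0.37 to 0.33) and Cat (-0.51 to 0.23). Between Atg7-KO;p62T352A and Atg7-KO they were Cpt1a (-0.022) and Hadha (-0.043) with upper-quartile scaling, and, as ranges with single mice left out, Decr1 (-0.29 to 0.39), Cyp4a12a (-0.099 to 3.37), Cyp4a31 (-0.14 to 0.62) and Acot1 (-0.15 to 1.34). Between Atg7-KO;p62T352A and cont. they were Ppargc1a (-0.020), Acads (0.11), Hadha (0.11), Acaa2 (0.14), Decr1 (0.35), Hsd17b4 (0.21), Cat (0.24), Cyp4a12a (-1.00) and Cyp4a14 (-0.014) with the mice numbered 2 and 3 alone, Acadm (-0.095), Acadl (-0.014), Acadvl (-0.092), Hadh (-0.035), Etfa (-0.086), Decr2 (-0.023), Cyp4a12a (-0.11), Cyp4a14 (-0.075) and Fabp1 (-0.010) with the length offset, Cyp4a12a (-0.043) and Cyp4a14 (-0.019) with DESeq2, Cyp4a12a (-0.050) and Cyp4a14 (-0.016) with DESeq2 size factors in edgeR, Cyp4a12a (-0.016) with upper-quartile scaling, and Cyp4a14 (-0.0029) with at least 10 counts in every mouse. With single mice left out they ranged over Ppargc1a (-0.11 to 0.43), Acadm (-0.0046 to 0.14), Acadl (-0.0086 to 0.34), Acadvl (-0.19 to 0.25), Hadha (-0.30 to 0.10), Hadh (-0.062 to 0.47), Decr1 (-0.59 to 0.11), Etfa (-0.03 to 0.45), Hsd17b4 (-0.24 to 0.29), Acaa1b (-0.14 to 0.054), Cat (-0.27 to 0.47), Cyp4a12a (-2.13 to 1.17) and Cyp4a14 (-0.76 to 1.25).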
